A study of Mus musculus with 11 samples.

Results

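The aryl hydrocarbon receptor (AhR) pathway was followed through 7 genes named by symbol: Ahr, Arnt, Ahrr, Tiparp, Cyp1b1, Cyp1a1 and Nqo1. All 7 were found among the 52550 genes of the RNA-seq table, and 6 were among the 14419 genes that passed the filter on low values, Cyp1a1 being the exception. The libraries were made from keratinocytes (KCs) and dendritic epidermal T cells (DETCs), the γ/δ T cells of mouse epidermis, sorted from flank skin of female mice aged 8 weeks. LC-/- mice (labelled DTA) carry the diphtheria toxin subunit A under the human langerin promoter and lack Langerhans cells (LCs) from birth, and WT littermates without the transgene were the controls. KCs had 3 WT (W1 to W3) and 3 LC-/- libraries (L1 to L3), and DETCs had 3 WT (W1 to W3) and 2 LC-/- libraries (L2 and L3). Cells positive for MHC-II, langerin or c-kit were gated out, and CD45 separated DETCs (positive) from KCs (negative).

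AhR is a transcription factor that waits in the cytoplasm in a complex with the chaperone HSP90 until it binds a ligand, such as a dioxin, a plant indole or a photoproduct of tryptophan. It then enters the nucleus, pairs with ARNT and binds response elements in genes for xenobiotic metabolism (Cyp1a1, Cyp1b1, Nqo1) and in genes for its own inhibitors (Ahrr, Tiparp). In the epidermis the receptor is known for its part in barrier formation in keratinocytes and for the maintenance of resident γ/δ T cells and LCs.

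Library depth ran from 13491075 to 19750440 reads assigned to genes. Cd207, which encodes langerin, had 53 reads over the WT KC libraries and 0 over the LC-/- KC libraries, and 88 reads in WT against 4 in LC-/- DETC libraries. By limma, described below, its adjusted p was 0.0245 in KCs and 0.0520 in DETCs. Cd207 is 1 of 13 LC markers, of which 9 were tested. At an adjusted p under 0.05, 3 were lower and 1 was higher in LC-/- KCs. In LC-/- DETCs 4 were lower and 1 was higher. The summed level of the 13 was 6297 to 6894 in WT KCs and 9657 to 10237 in LC-/- KCs. This sum does not describe the list. Of the 9 tested markers, 1 had a log2 difference above 0 in KCs, and their median was -0.87. Called in KCs were Cd207, H2-Aa, Cd74 and Epcam. All 15 DETC markers were detected in every DETC library, and in KC libraries their summed level was 0.147% to 0.282% of that in DETCs. Their sum was 245169 to 250961 in WT DETC libraries and 214825 (L2) and 224837 (L3) in LC-/-. The stains listed by the study held no T cell receptor. All 8 α/β T cell markers were also detected in every DETC library. Their sum was 10104 to 12066 in WT, 7797 in L2 and 14628 in L3. The share of other T cells was not tested. All 18 keratinocyte markers were detected in every library. Their median level in DETC libraries was 15.3%, 15.2% and 18.6% of the KC level in WT (W1 to W3) and 24.97% and 16.2% in LC-/- (L2 and L3), so the DETC libraries held keratinocyte RNA. Single markers ran from 6.31% to 24.4% in W1, 11.9% to 48.5% in W2 and 6.26% to 26.7% in W3. They ran from 15.5% to 51.8% in L2 and from 5.22% to 23.8% in L3, so the median is a rough estimate. The median share of the mean KC value of the same genotype is called the keratinocyte part below. It is given beside the DETC values of the tested members and of the list genes called in DETCs. In bulk libraries, fewer cells of a type and less RNA per cell cannot be told apart. The study describes each library as a separate animal, which the labels do not state, and p-values measure the spread between these libraries.

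The response element of AhR has the core GCGTG. It was searched on both strands in RefSeq promoters (GRCm38.p6, from 250 bases before to 50 after the start site), which were found for 6 of the 7 genes and not for Ahr. The promoters of 4 genes are shown because they set Ahrr and Tiparp beside both Cyp1 genes. The repressor Ahrr differed most between the populations. Tiparp was called between the genotypes in DETCs (limma, adjusted p = 0.0449, close to the threshold) and not in KCs. Capitals mark the core as read on the gene's strand (CACGC where it lies on the other strand).
Ahrr (chr13:74292282-74292581, minus strand): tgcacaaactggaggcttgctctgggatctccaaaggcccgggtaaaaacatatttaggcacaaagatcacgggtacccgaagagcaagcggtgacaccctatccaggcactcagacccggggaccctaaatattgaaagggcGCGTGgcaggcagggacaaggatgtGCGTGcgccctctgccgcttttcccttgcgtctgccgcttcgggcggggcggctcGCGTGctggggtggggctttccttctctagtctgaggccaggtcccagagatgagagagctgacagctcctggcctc
Tiparp (chr3:65528197-65528496, plus strand): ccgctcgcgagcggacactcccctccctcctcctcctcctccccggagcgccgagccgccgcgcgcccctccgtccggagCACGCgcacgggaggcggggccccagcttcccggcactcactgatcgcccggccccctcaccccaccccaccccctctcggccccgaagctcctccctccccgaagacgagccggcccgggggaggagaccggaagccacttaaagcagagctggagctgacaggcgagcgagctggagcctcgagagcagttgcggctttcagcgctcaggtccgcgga
Cyp1b1 (chr17:79715012-79715311, minus strand): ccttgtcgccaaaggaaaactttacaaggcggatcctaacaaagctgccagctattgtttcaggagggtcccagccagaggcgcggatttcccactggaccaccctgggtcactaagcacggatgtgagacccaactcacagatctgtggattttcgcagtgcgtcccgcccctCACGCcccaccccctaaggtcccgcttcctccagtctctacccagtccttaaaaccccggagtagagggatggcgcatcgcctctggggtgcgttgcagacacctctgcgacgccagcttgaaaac
Cyp1a1 (chr9:57697363-57697662, plus strand): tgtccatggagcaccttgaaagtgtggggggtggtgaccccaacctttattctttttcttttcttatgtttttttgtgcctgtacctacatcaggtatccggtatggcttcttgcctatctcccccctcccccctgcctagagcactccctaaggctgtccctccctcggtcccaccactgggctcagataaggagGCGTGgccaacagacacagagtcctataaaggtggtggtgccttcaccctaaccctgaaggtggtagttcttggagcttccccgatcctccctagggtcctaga

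The Ahrr promoter held the core 3 times, beginning at positions -107, -82 and -27 from the start site. At least 3 copies stood in 3.92% of the 32851 promoters of the same length, and at least 1 copy stood in 32.4%. One copy was found in Tiparp (-170), Cyp1b1 (-76), Cyp1a1 (-54) and Arnt (-29), and 0 in Nqo1. The longer form TNGCGTG, of which the core is a part, was found once in Ahrr and in 5.07% of all promoters. A match describes the letters of the window alone, and elements farther from the start site were not searched.

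**Figure D1:**
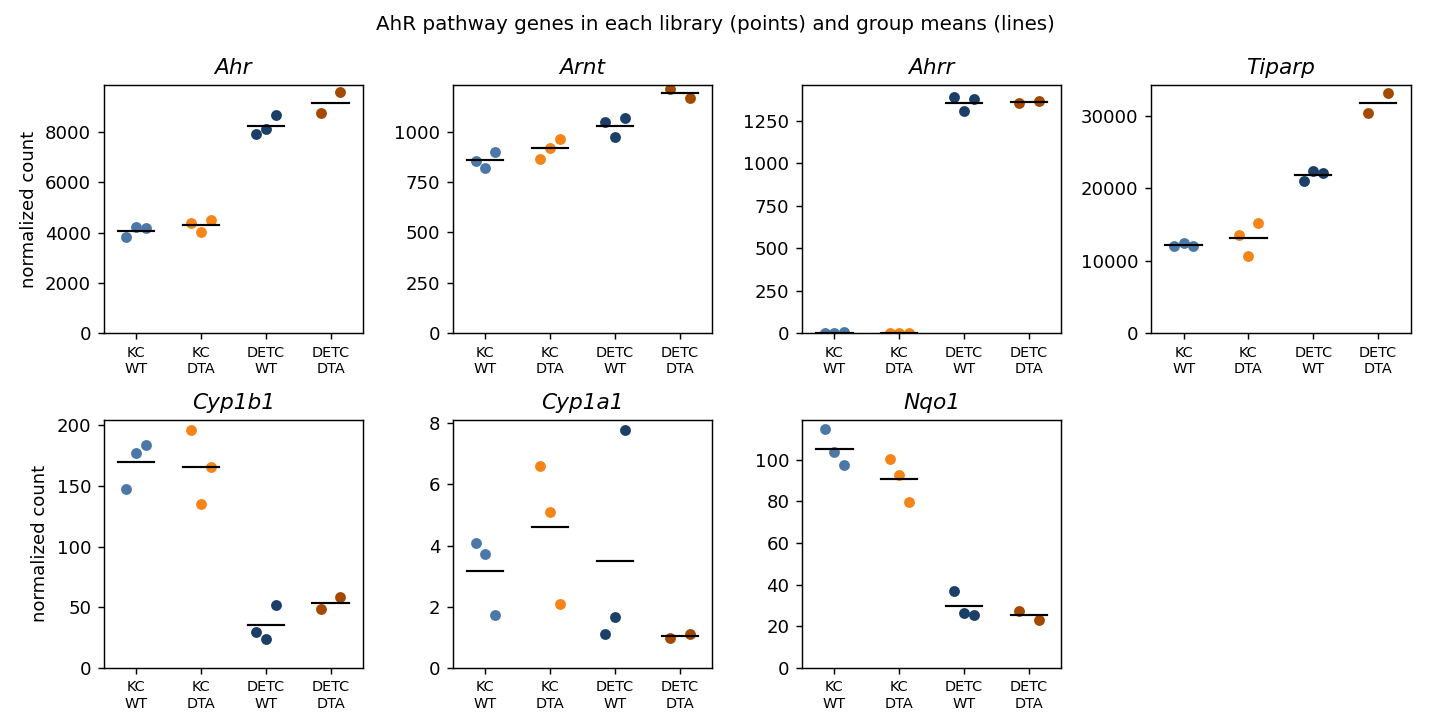
Normalized count (vertical axis, starting at 0, scale set per gene) of the 7 genes in each of the 11 libraries. Points are libraries and lines are group means. Ahrr is at or near 0 in the 6 KC libraries and between 1305 and 1391 in the 5 DETC libraries, and Tiparp is highest in the LC-/- (DTA) DETC libraries.

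The receptor itself was transcribed in both populations and at about 2 times the level in DETCs. Ahr (ENSMUSG00000019256, chr12:35497974-35535038, GRCm38, minus strand) had normalized counts of 3811, 4217 and 4186 in WT KCs and 7939, 8131 and 8678 in WT DETCs. The lowest DETC library stood above the highest KC library. Levels were 2.03-fold higher in WT DETCs (95% interval 1.80 to 2.28, log2 difference 1.02 ± 0.08 (SE), adjusted p = 1.35e-06). A normalized count is the number of reads of a gene divided by the size factor of its library, and a gene was called where the p-value of limma, adjusted by Benjamini-Hochberg over all tested genes, was under 0.05. In this comparison 41.0% of all tested genes were called higher in DETCs and 35.1% were called lower, so a call was common among all genes. An antisense gene, Gm48236, overlaps exons of Ahr on the opposite strand. It had 3 to 10 reads in KC libraries and 409 to 635 in DETC libraries, against 7275 to 9853 reads of Ahr in DETCs. Whether the counting used the strand was not stated, so reads from both genes may not be told apart where they overlap.

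Without LCs, Ahr changed by less than the test could call in either population. LC-/- KCs had normalized counts of 4372, 4029 and 4508, which overlapped with WT KCs (1.06-fold, 95% interval 0.945 to 1.18, adjusted p = 0.483). LC-/- DETCs had 8771 and 9599, both above the 3 WT libraries, with a 1.11-fold difference (95% interval 0.956 to 1.296) that was not called (adjusted p = 0.431). The keratinocyte part was 7.26% to 12.3% of Ahr in the DETC libraries.

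Arnt (ENSMUSG00000015522, chr3:95434388-95497240, plus strand), the nuclear partner of AhR and of the hypoxia factors, was the most even of the 6 tested genes across the populations. WT KCs had normalized counts of 853.6, 820.9 and 899.9, and WT DETCs had 1046, 974.6 and 1070. The groups did not overlap, and the level in DETCs was 1.2003-fold higher (95% interval 1.07 to 1.34, adjusted p = 0.00761). This call was lost with quantile normalization (log2 difference 0.05, adjusted p = 0.503) and after subtraction of the keratinocyte part (log2 difference 0.05, adjusted p = 0.485). Both settings also lowered the median log2 difference over all tested genes, from 0.07 to -0.24 and to -0.18. The values left after subtraction were not rescaled, so the fall was not particular to Arnt. Normalized counts of Arnt in LC-/- libraries were 865.9, 919.2 and 965.7 in KCs and 1213 and 1170 in DETCs. In DETCs both lay above all WT libraries, 1.16-fold on average, without passing the adjusted threshold (adjusted p = 0.246), and in KCs the genotypes overlapped (adjusted p = 0.354).

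A second dimerization partner, Arnt2, separated the populations far more than Arnt. It was named after its values had been seen. It had 0 to 11 reads in the KC libraries and normalized counts of 7355, 6845 and 7416 in WT DETCs, with 7028 and 6688 in LC-/- DETCs. Per kilobase of exon, WT DETCs held 937 ± 40.8 (SD, n = 3) normalized counts of Arnt2 and 129 ± 6.19 of Arnt, so the Arnt2 transcript was the more abundant there. In WT KCs the same values were 0.880 ± 0.324 for Arnt2 and 107 ± 4.96 for Arnt, the opposite order.

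Ahrr (ENSMUSG00000021575, chr13:74211118-74292331, minus strand) encodes the AhR repressor, which competes with AhR for ARNT. Its transcript was found in DETCs and was near the limit of detection in KCs. WT KC libraries had 0, 2 and 4 reads and LC-/- KC libraries had 0, 1 and 1, where a count of 0 allows up to 3 reads. WT DETCs had normalized counts of 1391, 1305 and 1376, and LC-/- DETCs had 1354 and 1364. The 5 DETC libraries thus lay within a narrow band and the genotypes overlapped. From the summed reads, 6 in WT KCs and 4271 in WT DETCs, the ratio of DETCs to KCs per library size was 724, with a 95% counting interval of 332 to 1974. Among LC-/- libraries it was 1931 (534 to 15950), from 2 reads in KCs. The fitted log2 difference in WT was 9.18 ± 0.46 (SE, adjusted p = 7.28e-08), but its size depended on the pseudocount (7.14 with 8 and 9.67 with 0.5).

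Between the genotypes Ahrr was not called in DETCs. The ratio of LC-/- to WT was 1.002, with a 95% interval of 0.878 to 1.14 (adjusted p = 0.992). Keratinocyte RNA made up at most 0.0239% of Ahrr in a DETC library. In the reverse direction, the level of Ahrr in KC libraries was 0% to 0.255% of its mean in DETCs, and the summed DETC markers in the same libraries stood at 0.147% to 0.282%. The part of DETC RNA in the Ahrr reads of KC libraries was not tested.

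Tiparp was the one gene of the 6 tested that was called between the genotypes. TIPARP (PARP7) is a mono-ADP-ribosyltransferase that is induced by AhR and marks it for degradation. Tiparp (ENSMUSG00000034640, chr3:65528410-65555518, plus strand) had normalized counts of 21058, 22390 and 22076 in WT DETCs and 30415 and 33178 in LC-/- DETCs. Both LC-/- libraries stood above all 3 WT libraries. The difference was 1.45-fold (95% interval 1.21 to 1.74, log2 difference 0.54 ± 0.11 (SE), adjusted p = 0.0449), close to the threshold. Of all tested genes, 3.13% were called higher and 0.43% lower in LC-/- DETCs, beside 1 and 0 of the 6 tested members.

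The Tiparp call depended on single libraries, while the log2 difference stayed between 0.48 and 0.60 when 1 library was left out. It was called without W1 (log2 difference 0.51, adjusted p = 0.0365). It was not called without W2 (0.56, adjusted p = 0.151) or without W3 (0.55, adjusted p = 0.146). The log2 difference was 0.60 without L2 and 0.48 without L3, fits that leave 1 LC-/- library. Quantile normalization gave a log2 difference of 0.28 (adjusted p = 0.105). Counts-based tests on the recovered reads called it, with adjusted p = 0.0329 in edgeR and 3.63e-06 in DESeq2. The keratinocyte part was 6.43% to 10.8% of Tiparp in DETC libraries. After its subtraction WT libraries held 19188 to 20529 and LC-/- libraries 27126 to 31044, a log2 difference of 0.55 (adjusted p = 0.148, where 0 of 14419 genes were called, while 1148 rose and 1193 fell with p under 0.05 before adjustment).

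In KCs, Tiparp was spread widely among LC-/- libraries. Normalized counts were 12084, 12506 and 12088 in WT and 13607, 10690 and 15228 in LC-/- KCs, so that L2 lay below and L1 and L3 above all WT libraries. The ratio was 1.07 (95% interval 0.839 to 1.36, adjusted p = 0.716). The genotype difference was larger in DETCs than in KCs by 0.45 ± 0.18 (SE) on the log2 scale, and this difference did not pass the adjusted threshold (adjusted p = 0.371). Between WT populations, Tiparp was 1.79-fold higher in DETCs (95% interval 1.56 to 2.05, adjusted p = 1.53e-05). A pseudogene on the opposite strand, 4931440P22Rik, overlaps exons of Tiparp and had 18 to 172 reads per library, against 10502 to 31326 of Tiparp.

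The enzymes Cyp1b1 and Nqo1 had the opposite distribution, with higher levels in KCs. Cyp1b1 (ENSMUSG00000024087, chr17:79701537-79715061, minus strand), a cytochrome P450 that oxidizes polycyclic hydrocarbons and estrogens, had normalized counts of 147.6, 177.2 and 184.1 in WT KCs. WT DETCs had 29.5, 23.9 and 51.5. No library of either group reached the range of the other, and DETCs were lower (log2 difference -2.31 ± 0.27 (SE), adjusted p = 3.23e-05). The keratinocyte part came to 45.8% to 108% of the Cyp1b1 value in the 5 DETC libraries. Less this part, WT DETCs held -1.89 to 19.98 normalized counts, so that expression in DETCs themselves was not separated from keratinocyte RNA.

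Cyp1b1 had 196.1, 135.4 and 166.0 normalized counts in LC-/- KCs, on both sides of the WT range (adjusted p = 0.913). LC-/- DETCs had 48.5 and 58.6, of which the former lay within the WT range. The ratio of LC-/- to WT in DETCs was 1.59, but its 95% interval ran from 0.899 to 2.81 (adjusted p = 0.355).

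Cyp1a1 (ENSMUSG00000032315, chr9:57687928-57703824, plus strand), the cytochrome P450 most used as a readout of AhR activity, was barely detected. WT KCs had 4, 4 and 2 reads and LC-/- KCs had 6, 5 and 2. WT DETCs had 1, 2 and 8 reads and LC-/- DETCs had 1 and 1. It was below the filter and was not tested, and the 36 reads over 11 libraries gave no order among the groups. Its relative Cyp1a2 was below the filter as well.

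Nqo1 (ENSMUSG00000003849, chr8:107388225-107403206, minus strand) encodes a quinone reductase that answers to both AhR and NRF2. It had normalized counts of 114.8, 103.9 and 97.7 in WT KCs and 37.1, 26.4 and 25.3 in WT DETCs. The groups were far apart, with a log2 difference of -1.82 ± 0.21 (SE, adjusted p = 2.80e-05). The keratinocyte part was 43.5% to 83.5% of the DETC values. LC-/- KCs had 100.3, 92.6 and 79.9, of which L1 lay within and the other two below the WT range (0.862-fold, 95% interval 0.690 to 1.08, adjusted p = 0.344). LC-/- DETCs had 27.2 and 23.2 (0.866-fold, 95% interval 0.526 to 1.43, adjusted p = 0.776).

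**Figure D2:**
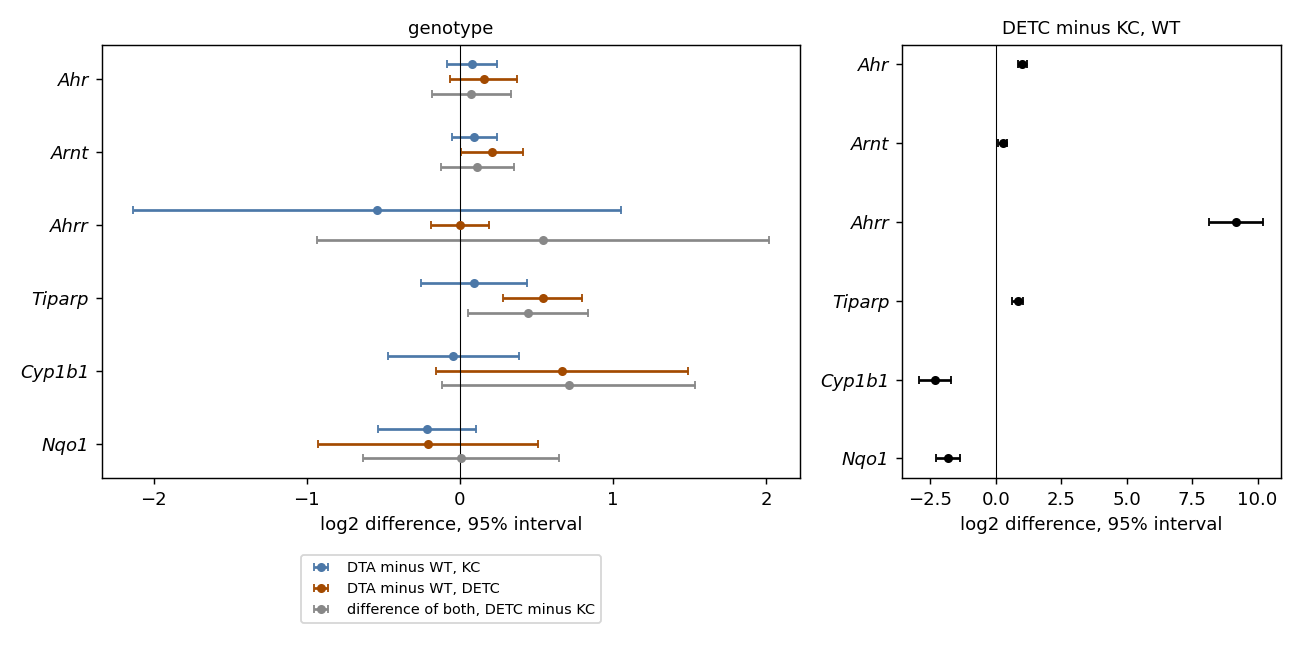
Log2 differences (horizontal axes) of the 6 tested genes with 95% intervals. Left, LC-/- (DTA) minus WT in KCs and in DETCs, and the difference of both. Right, WT DETCs minus WT KCs on a wider scale. On the left the interval of Tiparp in DETCs runs from 0.28 to 0.80, and on the right Ahrr lies at 9.18.

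Across the genotypes, then, 0 of 6 tested members were called in KCs, where 5.37% of all tested genes were called higher and 1.85% lower. The median log2 difference of the 6 was 0.02 in KCs, against -0.01 over all tested genes, and 0.18 in DETCs, against 0.02. None of the 6 was called for a different genotype effect in DETCs and KCs by limma, where 0.617% of all tested genes were called with a more positive and 0.18% with a more negative difference in DETCs. Before adjustment, Tiparp alone of the 6 had a p under 0.05 in that test, and edgeR and DESeq2 called 0 of the 6. All 6 were called between WT DETCs and WT KCs, 4 higher and 2 lower in DETCs. In that comparison 41.0% of all tested genes were called higher and 35.1% lower, so most genes were called.

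Levels of different genes were compared per kilobase of exon. In WT KCs the order was Tiparp (2805 ± 55.6 normalized counts per kilobase, SD, n = 3), Ahr (661 ± 36.6), Arnt (107 ± 4.96), Nqo1 (67.9 ± 5.57), Cyp1b1 (29.0 ± 3.32), Cyp1a1 (1.14 ± 0.456) and Ahrr (0.188 ± 0.183). No pair of neighbours overlapped, but Cyp1a1 had 2 to 4 reads per library and Ahrr 0 to 4, so their order was not resolved. In WT DETCs Tiparp (5012 ± 160) and Ahr (1339 ± 62.2) again led, followed by Ahrr (144 ± 4.90) and Arnt (129 ± 6.19). Nqo1 (19.1 ± 4.2), Cyp1b1 (5.99 ± 2.50) and Cyp1a1 (1.26 ± 1.33) were lower. LC-/- DETCs had 149 ± 3.79 (SD, n = 2) of Arnt and 144 ± 0.746 of Ahrr, but 12.5% to 18.9% of Arnt in DETC libraries was the keratinocyte part, against at most 0.0239% of Ahrr. Less this part, Ahrr stood above Arnt in both genotypes, at 144 ± 4.90 against 111 ± 4.97 in WT and 144 ± 0.750 against 125 ± 3.32 in LC-/- DETCs. LC-/- KCs had the same order as WT KCs, again with few reads of Cyp1a1 (2 to 6 per library) and Ahrr (0 to 1).

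**Figure D3:**
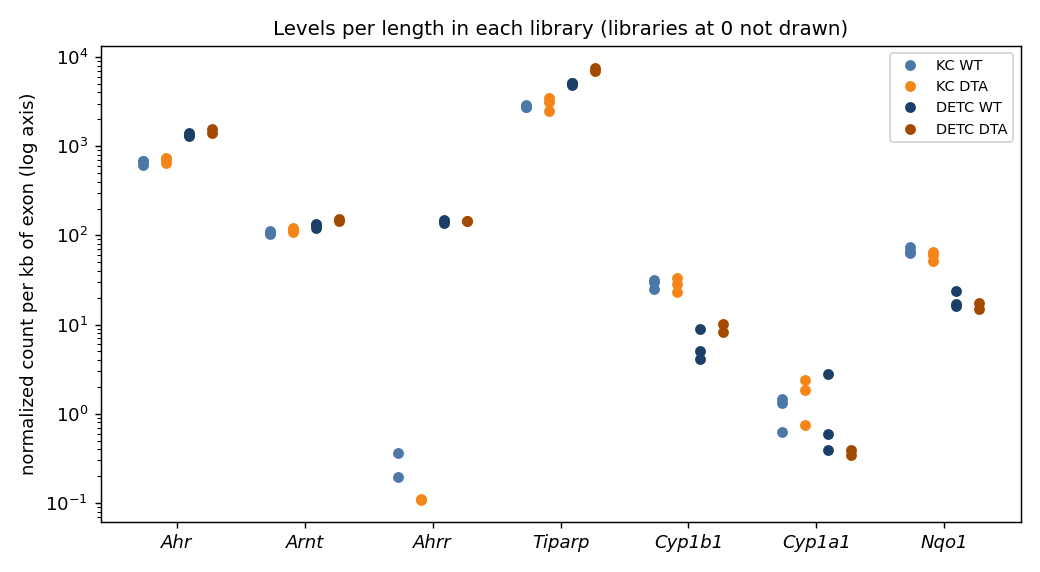
Normalized counts per kilobase of exon (log axis) of the 7 genes, with 1 point per library and colours for the 4 groups. Libraries at 0 (Ahrr in 2 KC libraries) are not drawn. Tiparp and Ahr are the highest in every group. Ahrr lies near the limit of detection in KCs, as does Cyp1a1, and beside Arnt in DETCs.

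**Figure D4:**
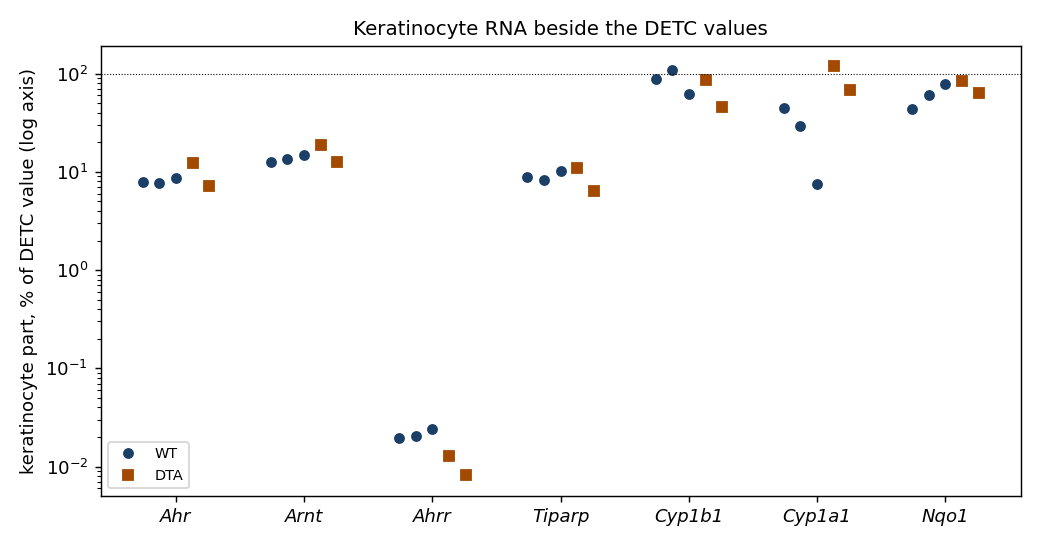
Keratinocyte part of each gene as a percentage of its value in each DETC library (log axis), with circles for WT and squares for LC-/- (DTA). It is under 0.03% for Ahrr, 6.43% to 18.9% for Ahr, Arnt and Tiparp, and 43.5% to 108% for Cyp1b1 and Nqo1. The dotted line marks 100%.

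For each member with a mean of at least 10, the 2 most alike genes were found by the root mean square difference of centred log2 values over the 11 libraries. For Ahr they were Pds5a (0.06) and C2cd2l (0.06), and for Arnt they were Nub1 (0.06) and Elavl1 (0.07). For Tiparp they were BC005537 (0.09) and Selenok (0.10). Ahrr was nearest to Plcl2 (0.40) and Fam20a (0.40), both of which had means under 2 normalized counts in KCs and of 1668 and 801 in DETCs. Cyp1b1 was nearest to Fzd1 (0.17) and Col18a1 (0.18), and Nqo1 to Lifr (0.15) and Prickle1 (0.15). The 11 libraries cover both populations, so the likeness includes the difference between KCs and DETCs.

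The surrounding pathway was read through 6 lists, of which 90 genes are reported, 70 of them tested. Of these, 6 were called in KCs and 8 in DETCs, all higher in LC-/-, where 5.37% and 3.13% of all tested genes were called higher. The 18 keratinocyte markers had a median log2 difference of 0.29 in LC-/- DETCs, with 15 of 18 above 0, and of 0.03 in KCs, against 0.02 and -0.01 over all tested genes. Their part in the DETC medians of the lists was not tested. Among 14 chaperones and coregulators of AhR, all tested, 3 rose and 0 fell in LC-/- KCs. Nrip1, a corepressor of nuclear receptors, rose from 3496, 3385 and 3450 to 4971, 4650 and 5985 normalized counts (1.502-fold, 95% interval 1.26 to 1.79, adjusted p = 0.0370). Src, a kinase released from the AhR complex, rose from 684.6 ± 20.8 to 955.3 ± 17.9 (SD, n = 3 each, adjusted p = 0.0169). Relb, an NF-kB subunit that can pair with AhR, rose from 706.0 ± 40.4 to 976.1 ± 85.1 (adjusted p = 0.0385). In LC-/- DETCs 2 rose and 0 fell. Hsp90aa1, the inducible HSP90 that holds the receptor, rose from 12364, 13321 and 15110 to 20547 and 21003 (1.53-fold, 95% interval 1.27 to 1.85, adjusted p = 0.0340), with a keratinocyte part of 10.5% to 16.6%. Cul4b, the ubiquitin ligase scaffold that AhR can recruit, rose from 867.8 ± 67.5 to 1325 ± 15.1 (adjusted p = 0.0226), with a keratinocyte part of 7.18% to 12.02%. The list's median log2 difference was 0.11 in KCs and 0.30 in DETCs. Of these, Relb was called in 0 and Nrip1 in 1 of the 6 KC fits that left out a library, and Hsp90aa1 in 1 of the 5 DETC fits.

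Of 18 other genes known as AhR targets, 13 were tested, with 0 called in KCs. In LC-/- DETCs 3 of the 13 rose. Nfe2l2, which encodes NRF2, had 3276, 3648 and 3517 normalized counts in WT and 6437 and 5954 in LC-/- DETCs (1.78-fold, 95% interval 1.54 to 2.06, adjusted p = 0.00991), with a keratinocyte part of 8.34% to 14.7%. In KCs it stood at 2776 ± 178 in WT and 3067 ± 81.1 in LC-/- (adjusted p = 0.176). The genotype difference of Nfe2l2 was larger in DETCs by 0.69 ± 0.11 (SE) on the log2 scale (adjusted p = 0.0146), a call made in 16 of 20 alternatives, over which adjusted p reached 0.111. Slc7a5, the transporter of tryptophan and kynurenine, rose from 1742 ± 279 to 2741 ± 233 (adjusted p = 0.0480), with a keratinocyte part of 9.33% to 14.2%. The list's median log2 difference was 0.01 in KCs and -0.06 in DETCs.

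Serpinb2, an inhibitor of plasminogen activators, was called higher in LC-/- DETCs, from 10184, 7278 and 11953 to 27644 and 16929 (adjusted p = 0.0488). Its keratinocyte part was 118% to 165% of the value in every DETC library, and its subtraction, with negative values set to 0, left 0 in all 5. The mean in KCs was 78842 in WT and 130906 in LC-/- (adjusted p = 0.134). Kit, an AhR target in skin γ/δ T cells that was named after its values had been seen, had 482.1 ± 122 in WT and 360.7 ± 94.1 in LC-/- DETCs (adjusted p = 0.411) although c-kit positive cells had been gated out. Of 8 mast cell markers, Kit among them, 5 were at 0 in all 11 libraries.

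Among 16 other members of the bHLH-PAS family, to which AhR and ARNT belong, 11 were tested and Hif1a was the one called. It rose in LC-/- DETCs from 3428, 3827 and 4228 to 6033 and 5217 (1.47-fold, adjusted p = 0.0446), with a keratinocyte part of 35.0% to 47.4%. In KCs Hif1a had 8795 ± 618 in WT and 11453 ± 1640 in LC-/- (adjusted p = 0.130). The median log2 difference of the family was -0.20 in KCs and 0.02 in DETCs.

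Of 17 NRF2 antioxidant genes, which share Nqo1 as a target with AhR, 16 were tested. In LC-/- KCs 2 rose and 0 fell. They were Mafg, a partner of NRF2, from 1768 ± 49.8 to 2341 ± 130 (adjusted p = 0.0236), and Osgin1, a stress-induced growth inhibitor, from 149.6 ± 8.88 to 193.3 ± 4.54 (adjusted p = 0.0483). Osgin1 was called in 4 of 16 alternatives, and not in edgeR (adjusted p = 0.0623) or DESeq2 (adjusted p = 0.0999). In LC-/- DETCs Nfe2l2 and Srxn1 rose and 0 fell. Srxn1, which repairs oxidized peroxiredoxins, went from 242.6 ± 18.7 to 467.3 ± 91.6 (adjusted p = 0.0240), with a keratinocyte part of 25.03% to 38.8%. Srxn1 in KCs had 434.2 ± 71.7 and 827.5 ± 196 without being called (adjusted p = 0.0651). The median log2 difference of this list was 0.13 in KCs and 0.20 in DETCs.

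In the handling of tryptophan and kynurenine, which yields AhR ligands, 8 of 15 genes were tested. The enzymes Ido1, Ido2, Tdo2, Kynu, Kmo, Haao and Aadat were below the filter. In LC-/- DETCs Slc7a5 and its heavy chain Slc3a2 rose, and 0 fell. Slc3a2 went from 7703, 9263 and 8897 to 13712 and 13531 (1.58-fold, 95% interval 1.33 to 1.89, adjusted p = 0.0242), with a keratinocyte part of at most 5.80%. The median log2 difference was 0.01 in KCs and -0.04 in DETCs. In KCs 0 of 8 were called, with Slc3a2 at 1.18-fold (adjusted p = 0.106). Of 12 barrier genes reported to respond to AhR, 10 were tested, and 1 was called in KCs and 0 in DETCs by limma. Tfap2a, which encodes the epidermal factor AP-2α, rose in LC-/- KCs from 3364 ± 199 to 4089 ± 151 (1.22-fold, adjusted p = 0.0497). It was called in 5 of 16 alternatives, and quantile normalization gave a log2 difference of 0.14 (adjusted p = 0.128). The median log2 difference of the 10 was -0.05 in KCs and 0.22 in DETCs.

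**Figure D5:**
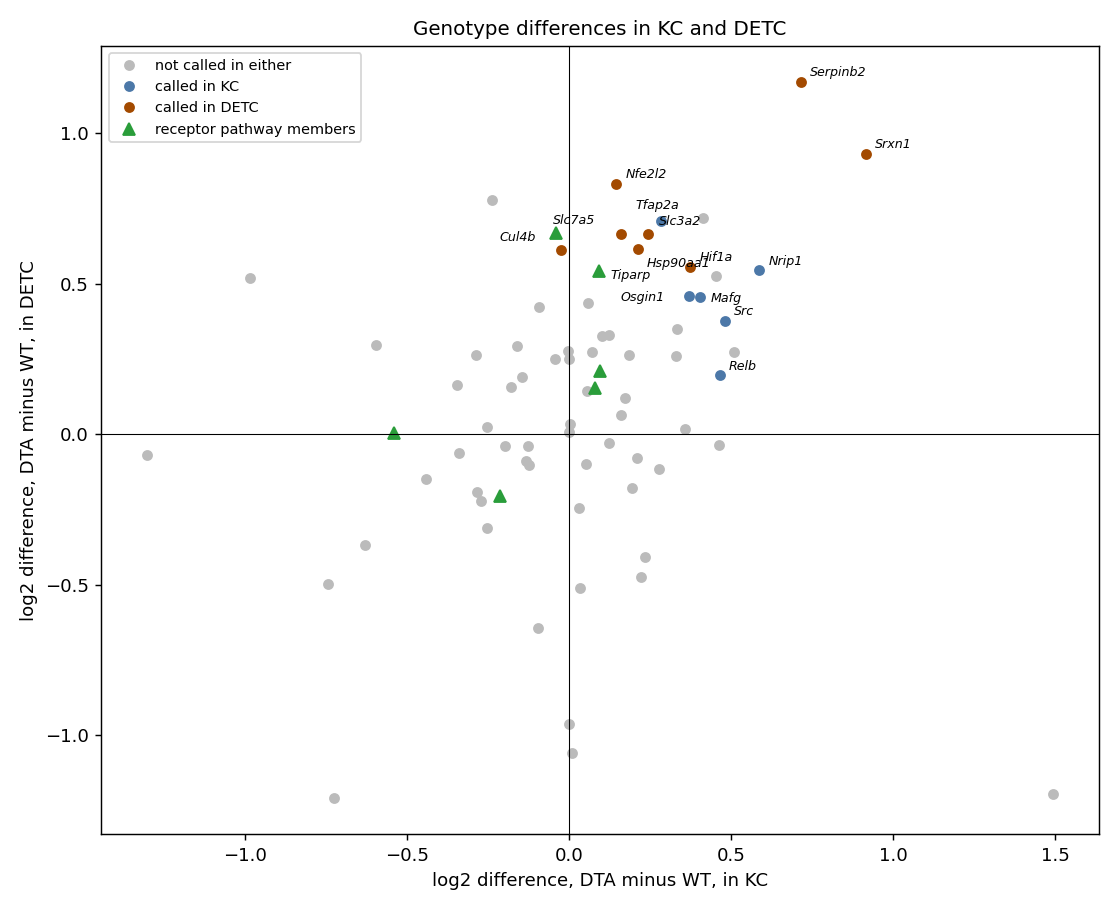
Log2 difference of LC-/- (DTA) minus WT in KCs (horizontal axis) and in DETCs (vertical axis) for 70 tested genes of the 6 lists (circles) and the 6 tested members (triangles). Colours mark genes called in KCs or in DETCs. Of the 14 called list genes drawn, 8 were called higher in DETCs, so their place above 0 there follows from the call. The 6 called in KCs also lie above 0 in DETCs, where they were not called. Their keratinocyte part in DETC libraries ran from 2.64% to 5.08% for Src up to 117% to 136% for Tfap2a.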

How the data were processed

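The authors trimmed reads, aligned them to GRCm38, counted them per gene and divided the counts by median-of-ratios size factors, and the deposited values are this signal per gene. All values were whole multiples of 1 read to within 0.01, so that reads were recovered (100% of values). Gene names, positions and exon lengths came from GENCODE M21 (52403 of 52550 identifiers). Genes with a CPM above 1 in at least 2 libraries were tested as log2(normalized count + 1) with limma 3.58.1 (eBayes with trend, R 4.3.3), two-sided, with Benjamini-Hochberg adjustment, so that differences of low genes are understated. edgeR 4.0.16 and DESeq2 1.42.0 on the recovered reads, pseudocounts of 0.5 and 8, other filters, normalizations and fits, and the omission of each library were alternatives. Subtraction of the keratinocyte part was chosen after the data had been seen, and the values left were not rescaled. The code was tested on simulated data. Members and lists were chosen with earlier results of these data known. Some listed genes are not reported here, and the list counts and medians leave them out. Named were all members, the called list genes and the 2 genes nearest to each member. Depth limits each value by counting error, and a count of 0 allows up to 3 reads.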

Additional observations from a re-analysis of the deposited data

Results flagged for a closer look

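The genotype difference of Nfe2l2 differed between the populations in limma's interaction test. LC-/- minus WT was larger in DETCs than in KCs by 0.69 on the log2 scale (95% interval 0.45 to 0.93, adjusted p = 0.0146), with both LC-/- DETC libraries above the 3 WT libraries. It was called in 9 of the 11 fits that left out 1 library, with an adjusted p of 0.0250 to 0.0755, and was lost without KC library L1 (0.0508) and without DETC library L2 (0.0755). Over all 20 alternatives it was called in 16. It was also lost with the number shared by libraries as a replicate block (adjusted p = 0.111, the highest) and without a trend in eBayes (adjusted p = 0.0773). Groups of 3 or fewer libraries were not examined for outlying libraries.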

How the results depend on the processing

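Each result was recomputed under 15 to 20 alternatives. The 6 members kept their calls between the WT populations, except Arnt. Its call was lost with quantile normalization (0.05, adjusted p = 0.503) and after subtraction of the keratinocyte part (0.05, adjusted p = 0.485). Both settings also lowered the median log2 difference over all tested genes, from 0.07 to -0.24 and to -0.18. In KCs and in the difference between populations, the alternatives called 0 members. The 1 member called in DETCs, Tiparp, was not called (0 members) with a pseudocount of 8, without a filter, with quantile normalization, without a trend in eBayes, or after subtraction of the keratinocyte part, and leaving out 1 library gave 0 to 1 member. Signs of uncalled differences turned with quantile normalization for Ahr (-0.072 in KCs, -0.112 in DETCs, -0.047 for the difference), Cyp1b1 (0.045) and Tiparp (-0.063) in KCs, Ahrr in DETCs (-0.075) and the Nqo1 difference (-0.10). They also turned for Ahrr in DETCs (edgeR -0.041, DESeq2 -0.025, size factors within the population -0.023) and the Nqo1 difference (edgeR -0.034, DESeq2 -0.0040). With 1 library left out, values ran from -0.17 to 0.095 (Cyp1b1 in KCs), -0.019 to 0.24 (Tiparp in KCs), -0.025 to 0.021 (Ahrr in DETCs) and -0.10 to 0.18 (Nqo1 difference). The cause was not tested. Serpinb2 in DETCs went to 0 after the subtraction by its construction.

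Calls over all genes moved more. In KCs, 1042 became 5 without L1 and 721 without L2 among fits that left out a library, 73 without a filter and 1783 with edgeR. In DETCs, 514 ran from 35 (without L2) to 590 (without L3), with 1079 in DESeq2, and was 0 without a trend in eBayes (1554 rose and 853 fell with p under 0.05 before adjustment) and without a filter (1995 and 1070). The share of calls that were higher fell with quantile normalization from 87.9% to 67.7% in DETCs, from 77.4% to 59.3% for the difference and from 53.9% to 41.3% between WT populations, where the median over all genes moved from 0.07 to -0.24. With 1 library left out, Nfe2l2 stayed called in DETCs in 3 of 5 fits, Cul4b in 2 and the other reported list genes in 1 each, and in KCs Src in 2 of 6, Nrip1 and Mafg in 1, and Relb, Osgin1 and Tfap2a in 0.

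Libraries of both populations share numbers in their labels. Their deviations from the group means correlated by -0.0586 (W1), 0.0736 (W2), 0.120 (W3), 0.156 (L2) and 0.128 (L3). Of the 5, 4 correlated best with their own number, a hint from the data alone. These 5 are not independent, since deviations within a group sum to 0. With 2 LC-/- DETC libraries, those of L2 and L3 are equal and opposite. With the number as a replicate block, calls for the difference between populations went from 115 to 18, members called stayed at 0 and 6 (the WT populations), and Nfe2l2 was not called (0.67, adjusted p = 0.111), as without a trend in eBayes (adjusted p = 0.0773). For each population alone, no paired analysis was possible because the genotypes shared no number.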
